A study of Mus musculus with 12 samples.

Results

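Vitamin B12 was added to mouse embryonic fibroblasts (MEFs) whose reprogramming factors were not switched on, and their RNA was compared with that of MEFs without added B12. The comparison used 6 of the 12 libraries of the series, 3 with B12 (MEF+B12) and 3 without (MEF), chosen by the condition and treatment in the library labels. The cells came from C57BL/6 embryos at stage E13.5 and carried a doxycycline-inducible cassette of Oct4, Sox2, Klf4 and Myc (OSKM), which was present in both groups and was induced in neither. Clones 1, 2 and 3 were separate MEF isolates, and each gave 1 library to each group. Cells were grown for 72 h in medium for induced pluripotent stem cells, and MEF+B12 received 2 µM B12 throughout. The labels give no B12 dose for MEF, which was grown in the same medium. The other 6 libraries were the same clones given doxycycline at 1 µg/ml, without B12 (OSKM) or with it (OSKM+B12), and they entered the fit so that all 12 libraries shared 1 estimate of the spread.

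B12 is the cofactor of methionine synthase, which remakes methionine from homocysteine and so feeds the supply of S-adenosylmethionine for methylation, and of methylmalonyl-CoA mutase, which acts in the breakdown of propionate. Primary MEF cultures are grown from minced embryos without a purifying step, so that cells other than fibroblasts, among them embryonic macrophages, can be carried into the culture. Macrophages are phagocytes that depend on signals through the Csf1 receptor and that take up and recycle iron and heme.

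Library totals of the 6 libraries ranged from 56971244 to 68902385 counts, and the biological coefficient of variation within the fit was 8.04%. The labels fitted the cells by their markers. All 20 fibroblast markers were expressed, and their summed level was 121429 to 152201 CPM (counts per 1e6 of a library total scaled by its TMM factor). By contrast Pou5f1 (Oct4) was at most 0.468 CPM and Sox2 at most 0.838 CPM. Clone 1 expressed the Y-linked Ddx3y and clones 2 and 3 expressed Xist, in both groups. The titles give clone 1 a different year from clones 2 and 3, which share one. Both libraries of clone 2 stood apart in their mitochondrial share, in opposite directions. It was 0.319% of counts in MEF and 0.816% in MEF+B12 of clone 2, against 0.524% to 0.594% in the libraries of clones 1 and 3.

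B12 raised many genes and lowered almost none past the threshold. Of 19174 genes tested, 263 (1.37%) were higher in MEF+B12 at an adjusted p under 0.05 and 1 (0.00522%) was lower. At an unadjusted p under 0.05 there were 1240 higher and 732 lower genes. Among the rises, 22 exceeded 1 on the log2 scale, 163 lay between 0.5 and 1, and 78 were smaller. The median rise was 0.63, against a median of -0.01 over all genes tested. The rises were expressed at a median of 22.5 CPM, against 11.9 CPM for all genes tested, and 255 of them were protein coding. All 263 were higher in each of the 3 clones, as were 19.3% of all genes tested. In 161 of them every MEF+B12 library lay above every MEF library, a pattern found in 5.85% of all genes. The rises were called on these same libraries, so both patterns follow in part from the call. The number of genes called depended on the clones used. It was 253 higher genes without clone 1, which leaves only the clones of 1 year, but 29 without clone 3 and 0 without clone 2, when 969 genes still had an unadjusted p under 0.05.

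Markers of macrophages were among the rises. Of 15 macrophage markers, 9 rose, 14 were higher in all 3 clones, and the median log2 fold change was 0.56. Csf1r, the receptor that macrophages need to survive, was 143, 92.4 and 76.2 CPM in MEF of clones 1, 2 and 3 and 219, 162 and 135 CPM in MEF+B12. It was higher in each clone with B12, but the groups overlapped because clone 1 was highest in both. The log2 fold change was 0.75 ± 0.12 (SE) with an adjusted p of 0.013. Spi1, which encodes the myeloid transcription factor PU.1, rose by 0.63 ± 0.13 from 39.4, 28.4 and 25.1 CPM to 54.9, 47.5 and 40.7 CPM, with no overlap of the groups. Mrc1, the mannose receptor, rose by 0.84 ± 0.11, Cd68, a lysosomal glycoprotein, by 0.76 ± 0.15, and Adgre1, the F4/80 antigen, by 0.63 ± 0.10. Lyz2, the macrophage lysozyme and the most abundant of the markers, was 1062 ± 363 CPM in MEF and 1414 ± 379 CPM in MEF+B12 (SD, n = 3) and did not pass, with a log2 value of 0.43 ± 0.11 and an adjusted p of 0.0972. The smallest values were those of Mertk and Cx3cr1. Mertk, a receptor for apoptotic cells, had a log2 value of 0.05 ± 0.07, and Cx3cr1, the fractalkine receptor, was lower in all 3 clones at -0.49 ± 0.27 with an adjusted p of 0.613.

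The summed level of the 15 markers was 2587, 1801 and 1387 CPM in MEF of clones 1, 2 and 3 and 3412, 2798 and 2106 CPM in MEF+B12, ratios of 1.32, 1.55 and 1.52. Each clone was higher with B12, and the groups overlapped. None of the 15 markers was at 0. In bulk RNA, more cells of a type and more RNA per cell cannot be told apart, so that the rise of a macrophage gene here is a rise in its level relative to the culture's other RNA. The part of macrophage number in the results that follow was not tested. Other blood lineages were almost absent. Summed over their lists, neutrophil markers reached at most 1.86 CPM, mast cell markers 0.398 CPM, lymphocyte markers 0.662 CPM and erythroid markers 0.433 CPM in any of the 6 libraries, and 1 gene of each list was expressed enough to be tested, of which 0 passed. In all 6 libraries 1 neutrophil, 3 mast cell and 2 lymphocyte markers had 0 counts. The count of macrophage markers past the threshold was 11 without clone 1, 0 without clone 2 and 1 without clone 3.

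The largest rise was that of Slc13a3 (chr2:165405028-165473230, GRCm38), which encodes a sodium-coupled carrier of succinate and other dicarboxylates. It was 11.6, 9.72 and 3.74 CPM in MEF of clones 1, 2 and 3 and 35.96, 26.4 and 14.4 CPM in MEF+B12. Every MEF+B12 library was above every MEF library, and the log2 fold change of 1.64 ± 0.14 (adjusted p = 0.000901) corresponds to 3.12-fold. The other 6 tested genes on the list of dicarboxylate and citrate carriers, which also holds the enzyme Acly, did not pass. Of all genes tested, 1.37% rose. Ccl12 (chr11:82101845-82103400), a monocyte-attracting chemokine, followed with 18.4, 6.91 and 4.97 CPM in MEF and 47.5, 21.6 and 13.3 CPM in MEF+B12. The groups overlapped through the high level of clone 1 without B12, but each clone rose to a similar extent, and the log2 fold change was 1.47 ± 0.12 (adjusted p = 0.000715). Both genes also rose without clone 1, with adjusted p-values of 0.00343 and 0.0015, and without clone 3, with 0.0198 and 0.0185. Without clone 2 neither passed, with 0.114 and 0.13.

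**Figure D1:**
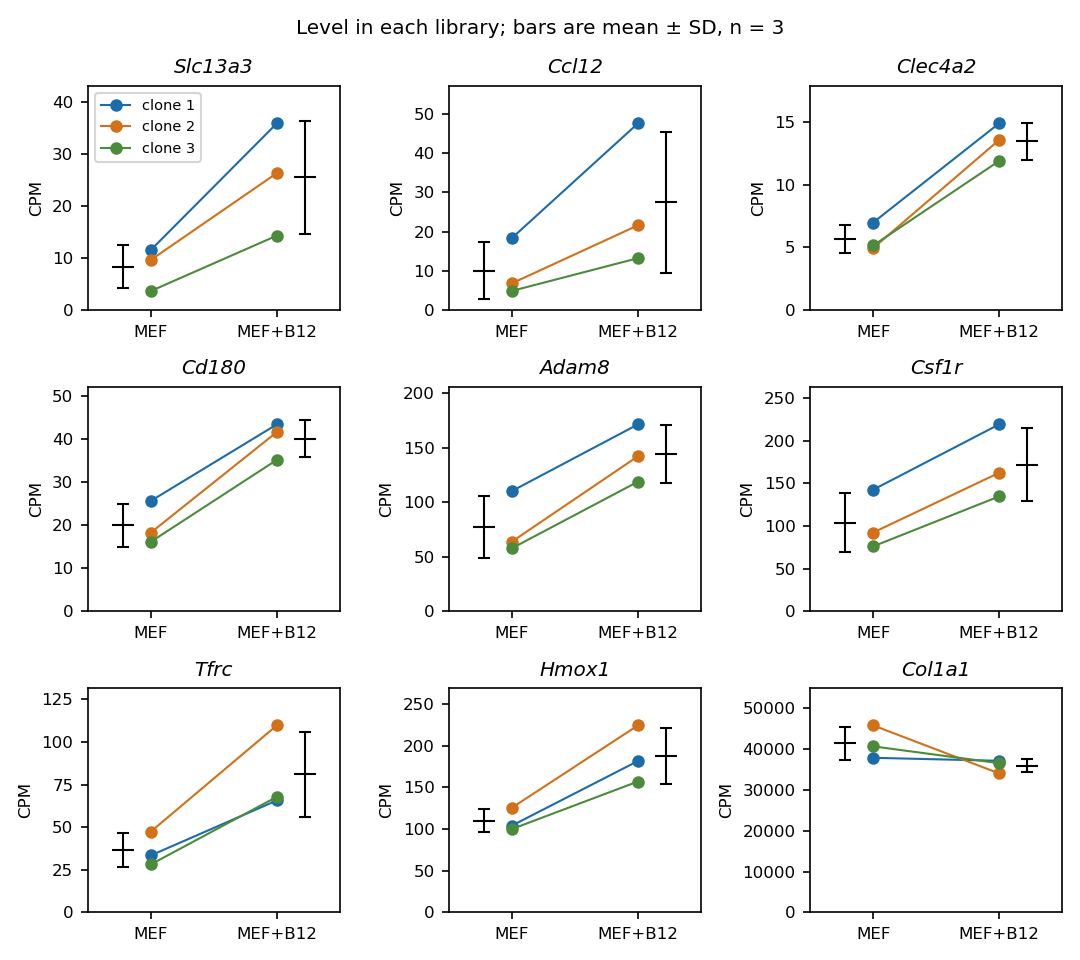
Level of 9 genes in CPM (vertical axis, from 0) in each library, with lines joining the MEF and MEF+B12 libraries of a clone and bars for the mean ± SD of 3 libraries. All lines rise except those of Col1a1, and clone 1 is the highest in both groups for all genes shown except Tfrc, Hmox1 and Col1a1.

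Several families of myeloid receptors held rises. Of 10 tested C-type lectin receptors, which bind sugars on microbes and dying cells, 5 rose, 10 were higher in all 3 clones and the median was 0.79. Clec4a2 (chr6:123106428-123143999), an inhibitory member, was 6.98, 4.95 and 5.16 CPM in MEF and 14.9, 13.53 and 11.9 CPM in MEF+B12. The groups did not overlap, and the log2 fold change was 1.24 ± 0.13 (adjusted p = 0.00316). Its neighbour Clec4a3 rose by 1.27 ± 0.18, Clec4n (Dectin-2) by 0.97 ± 0.20 and Clec4d by 0.83 ± 0.14. Of 13 genes on a list of Fc receptors, adaptors with ITAM signalling motifs and related receptors and signalling proteins, 6 rose, with a median of 0.57. They were the high-affinity IgG receptor Fcgr1 at 0.99 ± 0.14, Fcgr4 at 0.80 ± 0.14, the adaptor Tyrobp (DAP12) at 0.57 ± 0.11, Trem2 at 0.57 ± 0.09, Pirb at 0.53 ± 0.11 and the kinase Syk at 0.49 ± 0.08.

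Of 9 tested Cd300 receptors, a family of lipid-binding receptors on myeloid cells, 5 rose and the median was 0.70. Cd300ld3 was 7.72, 6.09 and 3.58 CPM in MEF and 15.04, 14.2 and 8.78 CPM in MEF+B12, without overlap, a log2 fold change of 1.15 ± 0.15. Cd300ld4 and Cd300ld5 both rose by 1.17 ± 0.17. These 3 genes share 84.1%, 96.2% and 100% of their 31-base sequence words with other genes, so the division of reads among them is uncertain. Cd300c2 and Cd300a, with values of 0.60 ± 0.08 and 0.47 ± 0.08, also passed.

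Because Spi1 was among the rises, promoters were searched for the core of the PU.1 motif, GAGGAAGT, on both strands, in windows of 250 bases before to 50 bases after each RefSeq start (GRCm38.p6). It was found in 30 of the 247 windows of the 193 rises with a promoter in the reference, or 12.15%, against 3.2% of all 32851 windows. CCAAT was present in 34.82% of the windows of the rises and 37.41% of all, TTTGAA in 13.77% and 17.89%, and the E-box CACGTG in 10.53% and 7.15%. These are descriptions of sequence and not of binding. The comparison was with the windows of all genes in the reference, and none was made with those of other myeloid genes. Whether PU.1 had a part in the rises was not tested. The stretches shown are those around the motif in the 4 largest rises that held it upstream of the start, each 120 bases long, read along the gene, with the motif or its reverse complement in capitals. They lie at chr11:115037814-115037933, chr11:115027057-115027176 and chr11:115048454-115048573 on the minus strand and, for Pf4, a platelet and macrophage chemokine, at chr5:90772315-90772434 on the plus strand.
Cd300ld5: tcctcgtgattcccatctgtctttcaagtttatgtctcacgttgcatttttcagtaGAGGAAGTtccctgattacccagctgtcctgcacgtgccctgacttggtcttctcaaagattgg
Cd300ld4: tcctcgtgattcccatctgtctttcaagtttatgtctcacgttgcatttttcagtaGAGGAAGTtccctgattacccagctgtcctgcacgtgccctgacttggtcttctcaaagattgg
Cd300ld3: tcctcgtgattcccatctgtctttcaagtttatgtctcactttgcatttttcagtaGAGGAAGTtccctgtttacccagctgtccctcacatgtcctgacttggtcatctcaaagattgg
Pf4: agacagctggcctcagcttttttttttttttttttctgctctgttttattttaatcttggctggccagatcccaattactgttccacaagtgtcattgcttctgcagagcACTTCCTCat
In the Cd300ld genes the motif began 187 bases before the start, in sequences that are close copies of each other, so that they count as 1 case rather than 3. In Pf4 it lay on the opposite strand and began 10 bases before the start. Further down the order of rises, the motif began 20 bases before the start in Inpp5d, 24 in Fcgr4 and 49 in Hpgds.

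Secreted and sensing proteins of the innate response rose in part. Of 20 chemokine ligands tested, 5 rose (median 0.37): Ccl12, Pf4, Ccl4, Ccl9 and Ccl2. Pf4 was 10.8, 3.37 and 1.58 CPM in MEF and 16.7, 9.0 and 4.97 CPM in MEF+B12, so that clone 1 without B12 exceeded the other clones with it, and the log2 fold change was 1.15 ± 0.19. Ccl2, which recruits monocytes, rose by 0.75 ± 0.08. The chemokines at high level in fibroblasts did not pass, with -0.12 ± 0.10 for Cxcl12 at 871 CPM in MEF and -0.01 ± 0.06 for Cxcl14 at 115 CPM. Of 18 Toll-like receptors and inflammatory mediators, 7 rose (median 0.34). Nlrp3, the sensor of an inflammasome, had 1.03 ± 0.12 at a mean of only 1.74 CPM in MEF, Tnf had 0.94 ± 0.17, and the nucleic acid sensors Tlr13 and Tlr7 had 0.76 ± 0.11 and 0.70 ± 0.11. Casp1, Tlr1 and Tlr2 were the others that passed. Il6 was at 0.672 and 0.625 CPM in the 2 groups and did not pass.

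Of 16 complement genes 6 rose. They were the receptors C3ar1 (0.81 ± 0.13) and C5ar1 (0.75 ± 0.13), properdin (Cfp, 0.69 ± 0.12) and the C1q chains C1qa, C1qb and C1qc (0.55 ± 0.10, 0.51 ± 0.09 and 0.50 ± 0.09). The other 10 members did not pass, among them C1s1, C1ra and Serping1, which fibroblasts express strongly, at means of 440.2, 329 and 456 CPM in MEF and 409.7, 311 and 443 CPM in MEF+B12. The list's median was 0.05. Of 14 scavenger and efferocytosis receptors, 4 rose (median 0.38), namely Cd36, Mrc1, Msr1 and Stab1 with 0.89 ± 0.14, 0.84 ± 0.11, 0.84 ± 0.10 and 0.65 ± 0.08, while Lrp1 and Axl had -0.40 ± 0.17 and -0.11 ± 0.05. Of 6 subunits of the phagocyte oxidase, 3 rose (median 0.56), and Cybb, its catalytic subunit, had -0.06 ± 0.14. Antigen presentation genes had a median of 0.00 with 0 of 15 past the threshold, and interferon-stimulated genes a median of 0.17 with 0 of 18. Of all genes tested 1.37% rose, so lists of this size would hold few or no calls at that share. Higher in all 3 clones were 3 of the 15 and 13 of the 18, against 19.3% of all genes tested. With only the 6 uninduced libraries, 0 antigen presentation genes and 6 interferon-stimulated genes rose.

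**Figure D2:**
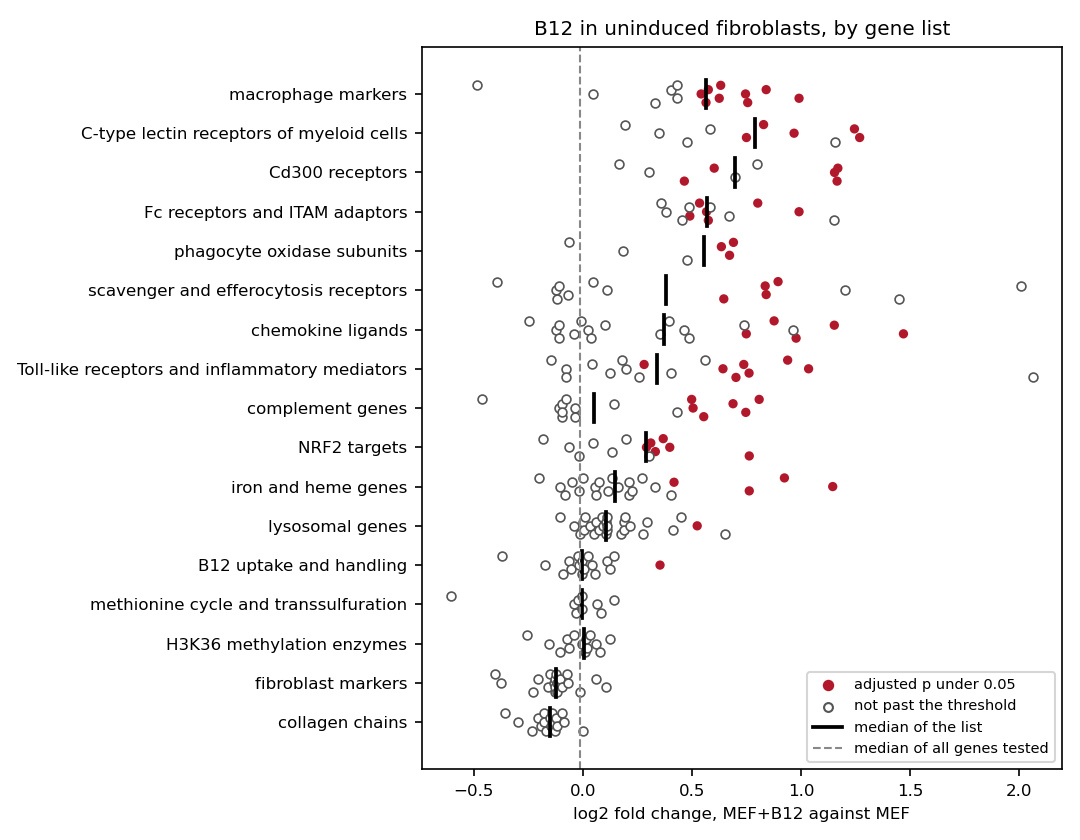
Log2 fold change of MEF+B12 against MEF (horizontal axis) for the tested genes of 17 lists, with filled points for genes at an adjusted p under 0.05, black bars for list medians and a dashed line for the median of all genes tested (-0.01). The myeloid lists lie to the right, with medians up to 0.79, the B12, methionine and H3K36 lists sit around 0, and the fibroblast and collagen lists lie to the left at -0.12 and -0.15.

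Iron and redox genes formed a further group of rises. Tfrc (chr16:32608920-32632794), the transferrin receptor that brings iron into cells, was 33.5, 47.5 and 28.2 CPM in MEF and 65.7, 110 and 67.8 CPM in MEF+B12. The groups did not overlap, and the log2 fold change of 1.15 ± 0.09 (adjusted p = 0.000715) corresponds to 2.21-fold. Hmox1 (chr8:75093621-75100589), which breaks down heme and releases its iron, was 104, 126 and 100 CPM in MEF and 182, 224 and 157 CPM in MEF+B12, also without overlap, a log2 fold change of 0.76 ± 0.06 (adjusted p = 0.000715). For both genes clone 2 was highest in each group. Which cells of the culture gave these rises was not tested. Slc11a1, an iron and manganese exporter of phagosomes, rose by 0.92 ± 0.13 and Blvra, which reduces the biliverdin that Hmox1 makes, by 0.42 ± 0.06. These were the 4 rises among 22 iron and heme genes, whose median was 0.15. The ferritin chains Fth1 and Ftl1 were higher in all 3 clones and did not overlap between the groups, but did not pass, with 0.40 ± 0.11 (adjusted p = 0.116) and 0.27 ± 0.08 (adjusted p = 0.169), and Ftl1 shares 64.1% of its words with other genes.

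Of 13 targets of NRF2, the transcription factor of the antioxidant response, 6 rose and the median was 0.29. In 7 of the 13 all MEF+B12 libraries were above all MEF libraries, a pattern found in 5.85% of all genes tested. After Hmox1 these were smaller changes in abundant genes. Gclm, a subunit of the enzyme that starts glutathione synthesis, went from 43.8, 43.3 and 39.2 CPM to 55.8, 57.4 and 53.2 CPM, a log2 fold change of 0.40 ± 0.06. Prdx1, a peroxide-removing enzyme, went from 393 ± 20.5 to 488 ± 45.9 CPM, a change of 0.31 ± 0.05. G6pdx, the first enzyme of the pentose phosphate pathway, had 0.37 ± 0.06, sulfiredoxin (Srxn1) 0.33 ± 0.06 and glutathione reductase (Gsr) 0.29 ± 0.05. Nqo1, a widely used NRF2 target, did not pass at 0.13 ± 0.16, nor did Slc7a11 at 0.04 ± 0.20. Without clone 1 the list had 4 rises, without clone 2 it had 0, and without clone 3 it had 1.

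Of the rises, 202 were on no list. The 15 largest of them by the naming rule ran from 0.86 to 1.15. Dok2, a docking protein of haematopoietic signalling, rose from 9.73, 4.13 and 3.42 CPM to 18.4, 11.3 and 7.60 CPM, a log2 fold change of 1.15 ± 0.13. Cd180, a Toll-like surface receptor, rose from 25.6, 18.3 and 16.1 CPM to 43.3, 41.6 and 35.1 CPM, with a change of 1.01 ± 0.14 and no overlap. Adam8, a membrane metalloprotease, was among the more abundant and rose from 110, 64.0 and 57.9 CPM to 171, 142 and 119 CPM, a change of 0.93 ± 0.15, again without overlap. The others were Tfec, Bst1, Coro2a, P2ry12, Ms4a6b, Parvb, Hk3, Lrrc25, Slc37a2, Milr1, Ms4a6c and Irf5. Ms4a6c is uncertain, since it shares 58.1% of its words with other genes. Among them Tfec is a transcription factor of the macrophage lineage, P2ry12 a purinergic receptor, Hk3 a hexokinase of myeloid cells and Irf5 an interferon regulatory factor. The 10 most abundant rises held genes used by many cell types, such as the fatty acid binding protein Fabp5 (0.61 ± 0.09), the lipid droplet protein Plin2 (0.36 ± 0.06), the lysosomal enzyme Gusb (0.34 ± 0.07), the sorting nexin Snx2 (0.49 ± 0.06) and the ADP/ATP carrier Slc25a5 (0.19 ± 0.04), beside Prdx1, Stab1, Mrc1, Laptm5 and Dab2.

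The size of the response was compared among clones. Over the 263 rises the median difference in log2 CPM was 0.50 in clone 1, 0.69 in clone 2 and 0.67 in clone 3, and the smallest of the 3 differences was that of clone 1 for 192 genes. The mean difference of the 15 macrophage markers was also smallest in clone 1, at 0.38, 0.55 and 0.56 in clones 1, 2 and 3, with an SD over markers of 0.29, 0.42 and 0.39. The difference among clones was not tested. Slc13a3 exceeded these marker means by 1.25, 0.89 and 1.37 and Tfrc exceeded them by 0.59, 0.66 and 0.70 in the 3 clones, and Ccl12 by 0.99, 1.09 and 0.85. Clec4a2, a receptor of myeloid cells, was above them by 0.71, 0.90 and 0.63, and Dok2 by 0.54, 0.90 and 0.58. These genes were named as among the largest rises in the same libraries, so values above the marker means follow from that choice. The means also include Mertk and Cx3cr1, the markers of smallest value. The median of the NRF2 list was 0.24, 0.31 and 0.30 in clones 1, 2 and 3.

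**Figure D3:**
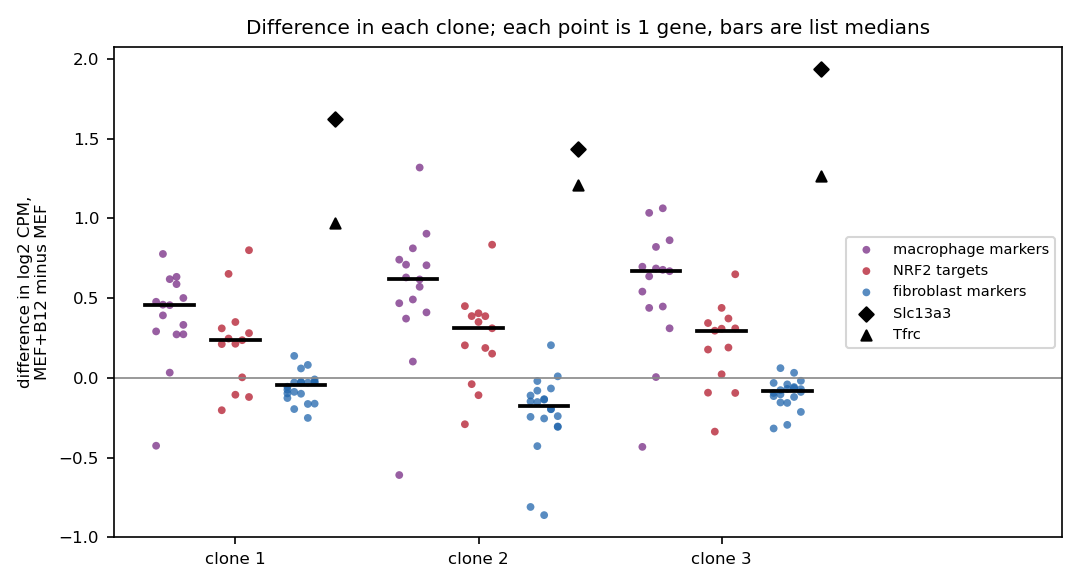
Difference in log2 CPM between MEF+B12 and MEF (vertical axis) in each clone, for macrophage markers, NRF2 targets and fibroblast markers, with black bars for list medians and black symbols for Slc13a3 and Tfrc. The macrophage medians are 0.46, 0.62 and 0.67, and the fibroblast medians are -0.04, -0.17 and -0.08. Slc13a3, the largest of the rises, lies above all plotted list members in every clone.

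Genes of the pathways that use B12 mostly did not pass, and neither did most genes. Of all genes tested 1.37% rose and 0.00522% fell, so lists of this size would hold few or no calls at that share. The counts below therefore do not show that these pathways were unaffected. Of 17 genes for the uptake and handling of B12, 1 rose. It was Abcc1 (MRP1), a transporter that exports B12 from cells and also carries glutathione conjugates, which went from 57.3, 49.7 and 47.8 CPM to 73.6, 63.0 and 61.2 CPM without overlap, a log2 fold change of 0.35 ± 0.04 (adjusted p = 0.00398). The list's median was 0.00. The carrier protein Tcn2 was at 121 ± 21.4 and 119.5 ± 18.7 CPM, its receptor Cd320 at 10.5 ± 1.00 and 10.6 ± 1.42 CPM, and methionine synthase (Mtr) at 32.0 ± 3.12 and 32.3 ± 7.92 CPM (SD, n = 3 each). Methylmalonyl-CoA mutase, named Mut in the annotation, had a log2 value of -0.02 ± 0.05. None of 9 genes of the methionine cycle and transsulfuration passed (median -0.01), nor of 17 of the folate cycle and serine synthesis (median 0.03), 9 of propionate breakdown (median -0.02), 14 H3K36 methylation enzymes (median 0.00) or 12 DNA methylation enzymes (median -0.04). Setd2, which trimethylates H3K36, had -0.16 ± 0.08, and Mat2a, which makes S-adenosylmethionine, had 0.08 ± 0.04. Of 24 mitosis genes 0 passed (median 0.03). Of 26 DNA replication genes 1 passed (median 0.07), the helicase subunit Mcm5, which rose by 0.24 ± 0.04.

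Genes of the fibroblasts and their matrix lay below 0 as groups, but none passed. Of 20 fibroblast markers 16 were lower in all 3 clones and the median was -0.12, of 18 collagen chains 14 were lower with a median of -0.15, and of 18 matrix glycoproteins 17 were lower with a median of -0.10. Among all genes tested 22.4% were lower in all 3 clones. Col1a1 was 37872, 45805 and 40671 CPM in MEF and 37134, 34054 and 36554 CPM in MEF+B12. The groups did not overlap, as in 3.55% of all genes, but clone 1 differed by only -0.03 on the log2 scale, and the log2 value was -0.20 ± 0.11 (adjusted p = 0.613). Fibronectin (Fn1) had -0.40 ± 0.14, most of it in clone 2, with differences of -0.06, -0.81 and -0.32 in clones 1, 2 and 3. The MEF library of clone 2 was that of lowest mitochondrial share and its MEF+B12 library that of highest share. The part of this pair in these values was not tested.

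The 1 gene past the threshold in the other direction was the predicted gene Gm12843 (chr4:117295817-117297725), which was named after its values were seen and was barely expressed, at 0.261 ± 0.03 CPM in MEF and 0.0812 ± 0.0174 CPM in MEF+B12, a log2 fold change of -1.65 ± 0.33 (adjusted p = 0.0377). The 10 falls of smallest p that did not pass had small values, from -0.17 for the natriuretic peptide receptor Npr2 to -0.34 for Crispld1, with adjusted p-values of 0.0565 to 0.104. They included Tgfb2, a growth factor of matrix-forming cells, at 52.9, 62.9 and 90.5 CPM in MEF and 45.8, 51.3 and 80.4 CPM in MEF+B12, a value of -0.22 ± 0.05. Hpgd, which degrades prostaglandins, had -0.23 ± 0.06, while Hpgds, which makes prostaglandin D2, was among the rises at 0.79 ± 0.12. Falls depended on the fit. With only the 6 uninduced libraries, 114 genes were lower and 731 higher. The lower genes then included the fibroblast markers Postn, Prrx1 and Fap, the collagens Col6a2 and Col5a3, and Cx3cr1.

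The rises were also read in the same clones with induced factors. The OSKM libraries were in the same fit, with the same clone terms and a shared estimate of the spread. They thus had a part in which genes passed in MEF, and this reading is not independent of the first. B12 raised 201 genes (1.05% of those tested) in OSKM cells, and 173 of the 263 rises of uninduced cells were among them. The difference was positive in all 3 clones of OSKM cells for 259 of the 263. The share of all genes tested with this pattern in OSKM cells was not counted. Their median log2 fold change was 0.63 in MEF and 0.60 in OSKM cells. Slc13a3 had 1.57 ± 0.14 in OSKM cells, Ccl12 1.39 ± 0.12, Tfrc 1.10 ± 0.09 and Hmox1 0.73 ± 0.06. In the test of a difference in the B12 effect between induced and uninduced cells, 0 genes (0%) passed in edgeR and 0 in DESeq2. Of 19174 genes, 273 and 120 had an unadjusted p under 0.05, a smaller share than 0.05. A test this strict can miss real differences, so 0 genes does not show equal effects. Of the rises, 8 had an unadjusted p under 0.05 in that test, and all 8, chosen on their values in MEF, were smaller in OSKM cells. They included Nlrp3, with 1.03 ± 0.12 against 0.62 ± 0.12, and G6pdx, with 0.37 ± 0.06 against 0.18 ± 0.06. Of 13 NRF2 targets 1 passed in OSKM cells, against 6 in uninduced cells, and 0 of them passed the test of the difference.

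**Figure D4:**
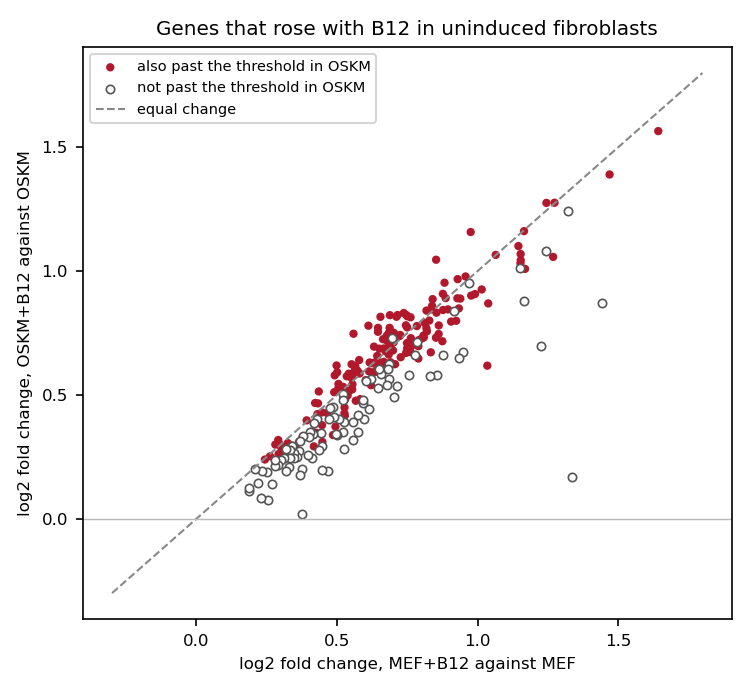
Log2 fold change with B12 in MEF (horizontal axis) and in OSKM cells (vertical axis) for the 263 genes that rose in MEF, with filled points for the 173 that also passed in OSKM cells and a dashed line for equal change. The genes were chosen on the horizontal axis, in a fit that also held the OSKM libraries. Of the 263, 259 were positive in all 3 OSKM pairs, and the share of all genes with this pattern was not counted.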

How the data were processed

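RNA was measured by poly(A) RNA-seq in MEFs of 3 clones. The authors aligned stranded read pairs to mm10 (GRCm38) with STAR (version 2.5.2 per the labels) and deposited raw counts per gene from featureCounts, reverse-stranded, adding together the sequencing runs of a library. Counts carry no molecular identifiers. GENCODE M21 matched 55480 of 55573 identifiers.

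Counts were tested with edgeR 4.0.16 in R 4.3.3 (quasi-likelihood F test, TMM, filterByExpr by group, terms for clone and group, Benjamini-Hochberg threshold 0.05) over 12 libraries. CPM used TMM-scaled totals, and log2 CPM a prior count of 2. The clone was a block because libraries of 1 clone deviated together, with correlations across genes of 0.687, 0.447 and 0.491 against at most 0.149 between clones. On simulated counts, 84% of changes of 0.5 and 98% of changes of 1 on the log2 scale were recovered, with 9 false among 191 calls over 18920 genes. Whether these rates hold for the measured counts, where the calls depended on the clones used, was not tested. Each clone gave 1 library per group. The p-values set the group difference against the variation left after the clone and group terms, pooled over all 12 libraries. That variation includes any difference between clones in their response to B12 or to induction. The share of 31-base words found in transcripts of other genes marked shared sequence, and genes at 50% or more are uncertain.

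The genes named are the 20 largest rises, the 15 largest on no list, the 10 most abundant rises, every fall and, below the threshold, the 10 falls of smallest p, all of which averaged 1 or more on the log2 CPM scale and had a symbol that is not a predicted name and 1 direction in all clones, and members of 49 lists, which had no such limits. Genes outside this rule are marked as named after their values were seen. The comparison, the lists and the rule were chosen with earlier results of these data known. Promoters were from RefSeq (GRCm38.p6). Alternatives were DESeq2 1.42.0, other scaling and filters, other blocks, only the 6 uninduced libraries, and leaving out clones.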

Additional observations from a re-analysis of the deposited data

How the results depend on the processing

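The number of genes past the threshold with B12 in MEF was 264 in all. It was 261 with DESeq2 size factors, 261 with at least 10 counts in every library, 469 with DESeq2, 409 with library totals in place of TMM, 425 with no filter, 334 without the OSKM library of clone 1, 443 with a replicate block for each clone and state, and 845 with only the 6 uninduced libraries and the clone as block. Without the replicate block it was 0, with 797 genes at an unadjusted p under 0.05. Leaving out each clone gave 0 to 253 genes. The fit with a block for each clone and state was also run without each clone, an alternative chosen after seeing the data, and gave 535, 34 and 4 genes without clones 1, 2 and 3. Calls thus rested on clone 2 most in the first fit and on clones 2 and 3 in the other. The cause was not tested. All fits that left out a clone used fewer libraries, also those without clone 1. Of 82 called genes that the rule or the lists name, 82 passed under DESeq2, 82 with the 6 libraries, 76 without clone 1, 0 without clone 2 and 12 without clone 3, and 0 reversed under any alternative run. The test of a difference between induced and uninduced cells gave 0 genes under each alternative run.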

Other observations

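Signalling proteins of blood cells were also among the rises on no list, and are named here after their values were seen. The kinases Btk and Lyn rose by 0.71 ± 0.12 and 0.50 ± 0.08 on the log2 scale, the exchange factor Vav1 by 0.68 ± 0.10, the inositol phosphatase Inpp5d (SHIP1) by 0.85 ± 0.08 and the kinase subunit Pik3cd by 0.62 ± 0.11. Vav1 went from 23.6, 18.2 and 15.99 CPM in MEF to 35.3, 30.9 and 25.9 CPM in MEF+B12, without overlap. Pgd, a dehydrogenase of phosphogluconate, rose by 0.31 ± 0.04, Taldo1, a transaldolase, by 0.26 ± 0.05 and Slc48a1, a heme transporter, by 0.27 ± 0.05.

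Transcripts of the mitochondrial genome did not pass. Their sum was 4979, 3228 and 5467 CPM in MEF of clones 1, 2 and 3 and 5237, 7970 and 5779 CPM in MEF+B12. The median difference of the 13 genes was 0.06, 1.31 and -0.02, and 0 of them passed in edgeR and 0 in DESeq2. Of the 13, 5 were higher in all 3 clones, against 19.3% of all genes tested. In 4 of them all MEF+B12 libraries were above all MEF libraries, against 5.85% of all genes tested. In mt-Nd4, mt-Co1, mt-Nd3, mt-Nd4l, mt-Atp6, mt-Co3 and mt-Co2, 62.8% to 100% of the 31-base words also occur in other genes, so their counts are uncertain.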
